A study of Homo sapiens with 5 samples.

Results

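LM2, a cell line of lung-metastatic generation 2, was compared with SN12C, the established human renal cell carcinoma line it is labelled as coming from. Total RNA was measured on Affymetrix arrays of 54675 probe sets, a probe set being a group of short probes that together give 1 signal for a transcript. The comparison rests on 4 of the 5 arrays of the series: 2 biological replicates of SN12C, labelled parental and non-metastatic, against 2 biological replicates of LM2. The array of generation 1 (LM1) was left out. The labels name no drug, transgene or other treatment in either line. The series description gives the aim as finding genes whose expression follows metastatic activity. Each line is a single line, so what differs is a property of these lines, and the labels do not say whether LM2 is a clone or a pool. The labels call the replicates biological without naming separate cultures, so p-values measure only the spread between these arrays.

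Genes were chosen by array separation. A probe set counted as separated where both LM2 values lay on one side of both SN12C values, and a gene counted as separated where this held, to the same side, for every probe set tested. Probe sets with 1 gene were tested where their signal was 6.03 (the 40th percentile over all probe sets and arrays) or more on at least 2 of the 4 arrays, which left 27532 probe sets of 14939 genes. All values are log2 signals, on which 1 unit is a 2-fold difference. Values are given as replicate 1 and then replicate 2 of each line, as the median over the tested probe sets of a gene. The difference of a gene is the median over its probe sets of LM2 minus SN12C, which with 3 or more probe sets need not equal the difference of the array medians.

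Of the 14939 genes, 2594 (17.4%) were separated with LM2 higher and 1350 (9.04%) with LM2 lower. With a difference of at least 1 log2 unit in every tested probe set, referred to here as 2-fold separated, 166 genes (1.11%) were higher and 129 (0.864%) lower. The higher count rested on the parental arrays: it was 92 without SN12C replicate 1 and 492 without SN12C replicate 2, while the lower count was 150 and 163. Agreement over several probe sets could be asked of 7130 genes. Of these, 957 (13.4%) had all probe sets separated with LM2 higher and 320 (4.49%) with LM2 lower, and 44 (0.617%) and 26 (0.365%) were 2-fold separated. Just inside the 2-fold limit stood VKORC1L1 and LINC01116, each 1.00 apart in their closest probe set, and just outside CFAP251 at 0.995 and PODXL at 0.993. In limma, 0 of 27532 probe sets (0%) passed an adjusted p of 0.05; the lowest adjusted p was 0.298, and 2843 probe sets had an unadjusted p under 0.05. With 2 arrays on each side, the smallest p that an exact two-sided permutation test allows is 0.33. Every difference below is therefore a description of the 4 arrays. Genes are also grouped in 29 lists by function, of which 67 of the 2-fold separated genes are members. Counts of separated genes in a list are to be read beside the shares over all tested genes, 17.4% higher and 9.04% lower. For 15 lists, all with a median within 0.14 of 0, the median changed sign under at least 1 alternative setting, so those medians carry no direction.

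**Figure D1:**
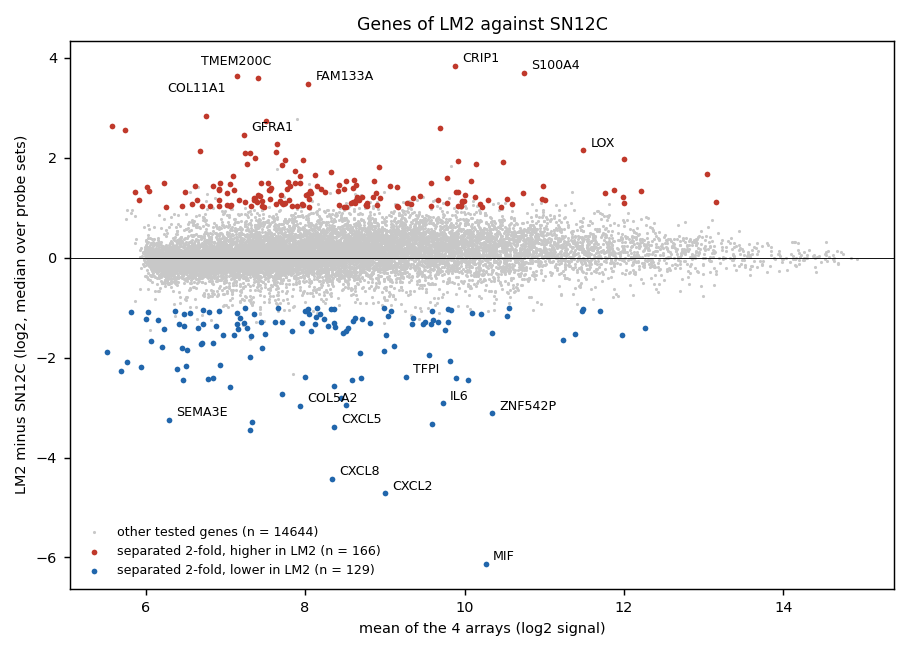
Each point is a tested gene, with the mean log2 signal of the 4 arrays on the x axis and the median over probe sets of LM2 minus SN12C (log2) on the y axis. Red points are the 166 genes 2-fold separated with LM2 higher, blue points the 129 with LM2 lower, and grey points the other genes; the lower side reaches -6.12 (MIF) and the higher side 3.84 (CRIP1).

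The 4 arrays had medians between 6.54 and 6.57. The 3' end of beta-actin exceeded its 5' end by 0.47 in SN12C replicate 1 and by 0.07 to 0.23 in the other arrays. For GAPDH the 3' end minus the 5' end was 0.14 in SN12C replicate 1 and -0.07 to -0.05 in the others. The LM2 arrays correlated across tested probe sets at r = 0.996 and the SN12C arrays at r = 0.960. The correlations of SN12C replicate 2 with LM2, 0.978 and 0.982, were higher than that with the other parental array, whose own correlations with LM2 were 0.943 and 0.944. Probe sets are not independent replicates. SN12C replicate 1 also had the smallest SD of signal, 2.11 against 2.24 to 2.25. Of the 2-fold separated genes, 132 of 166 higher ones (79.5%) and 67 of 129 lower ones (51.9%) had SN12C replicate 2 as the parental array nearer to LM2, against 70.5% of all tested genes. The part of SN12C replicate 1, and of its larger 3' excess, in the differences was not tested.

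Tumour cells speak to their surroundings through secreted chemokines and cytokines, through the collagen-rich matrix they deposit and through adhesion and guidance receptors on their surface. The chemokines CXCL1, CXCL2, CXCL3, CXCL5 and CXCL8 attract neutrophils through the receptor CXCR2, and their genes lie together on chromosome 4. Their transcription is known to be switched on by NF-kappaB, a family of factors that bind kappaB sites in promoters after inflammatory signals such as those of the interleukin 1 family. NFKBIZ encodes IkappaB-zeta, a nuclear protein that works with NF-kappaB at a subset of those genes.

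These chemokine genes were among those with the widest gaps between the lines, and their promoters share a kappaB-type motif, so the stretches around it are shown. In RefSeq promoters of assembly GRCh38.p14, each covering 250 bases before to 50 bases after a gene start, the letters GGAATTTCC, or GGAAATTCC on the other strand, were searched. Each of the 5 promoters held 1 match. The sequences run 5′ to 3′ on the strand of the gene, with the motif in capitals and up to 35 bases on each side. The windows are chr4:73869143-73869442 on the plus strand for CXCL1, chr4:74099146-74099445 on the minus strand for CXCL2, chr4:74038640-74038939 on the minus strand for CXCL3, chr4:73998628-73998927 on the minus strand for CXCL5, chr4:73740319-73740618 on the plus strand for CXCL8 and chr3:101827740-101828039 on the plus strand for NFKBIZ.
CXCL1: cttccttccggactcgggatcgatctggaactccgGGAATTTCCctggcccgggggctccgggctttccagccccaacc
CXCL2: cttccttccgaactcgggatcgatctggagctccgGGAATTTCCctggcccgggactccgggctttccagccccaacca
CXCL3: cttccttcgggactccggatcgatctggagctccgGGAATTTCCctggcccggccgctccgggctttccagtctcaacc
CXCL5: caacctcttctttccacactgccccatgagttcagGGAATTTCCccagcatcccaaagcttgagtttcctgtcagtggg
CXCL8: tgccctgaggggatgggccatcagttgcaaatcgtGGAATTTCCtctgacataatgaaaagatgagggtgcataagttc
NFKBIZ: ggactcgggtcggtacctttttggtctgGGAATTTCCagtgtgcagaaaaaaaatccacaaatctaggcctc

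The motif began 77 to 91 bases before the gene start in the 5 chemokine promoters, and 222 bases before it in NFKBIZ, whose other promoter held no match. The promoter of CXCL6, a related chemokine gene, also held 1 match, 89 bases before its start. CXCL6 was not among the 2-fold separated genes. Over the stretches shown, compared without gaps, CXCL1 and CXCL3 were identical at 72 of 79 positions (91.1%) and CXCL1 and CXCL2 at 63 (79.7%), while CXCL5 and CXCL8 shared 22 (27.8%). The promoters of IL6 and MIF held no match in this window. Of 109 genes 2-fold separated with LM2 lower that have a promoter in the table, 8 (7.34%) held the motif: CCDC3, CXCL1, CXCL2, CXCL3, CXCL5, CXCL8, LIMCH1 and NFKBIZ. Of 128 such genes with LM2 higher, 1 did (0.781%), GFRA1. The share over all 27305 genes with a promoter was 0.560%, and over the tested genes 0.606%. The motif was chosen as one that the chemokine promoters share, and the 5 chemokines are among the 8 genes. These shares therefore do not test whether the motif goes with lower signal in LM2. A match is a run of letters and does not show that a factor binds there.

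The 5 neutrophil-attracting chemokines whose promoter stretches are shown stood lower in LM2 than in either parental array. CXCL6 is not counted with them. CXCL5 was 9.46 and 10.64 in SN12C and 6.51 and 6.83 in LM2. Its 2 tested probe sets gave differences of -3.97 ± 0.17 and -2.80 ± 0.84 (SE). Each SE in the text is the moderated one of limma, which borrows variance from all probe sets. It can therefore be smaller or larger than the 4 values of a probe set alone would give. CXCL8, also named interleukin 8, was 12.24 and 8.84 in SN12C and 6.01 and 6.24 in LM2. Both LM2 arrays lay below both parental arrays, but the parental arrays themselves lay far apart for CXCL8, with replicate 1 the higher. CXCL2 was 12.54 and 10.19 in SN12C and 6.44 and 6.86 in LM2, a difference of -4.71 ± 0.94 (SE). CXCL1 was 10.19 and 7.86 in SN12C and 5.56 and 5.62 in LM2. CXCL3 was 10.59 and 7.38 in SN12C and 5.76 and 5.63 in LM2. SN12C replicate 1 was again the higher parental array for CXCL1, CXCL2 and CXCL3, whereas for CXCL5 it was the lower. The LM2 values of CXCL1 and CXCL3 lay under the filter value of 6.03, where signals say little about level. The tested probe sets of CXCL2, CXCL5 and CXCL8 are of types that can bind related transcripts, so these members cannot be told apart with certainty. Of the dim probe sets left untested, those of CXCL2 gave -0.36 and -0.09 and that of CXCL5 gave -0.40.

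Other secreted cytokines also stood lower. Of 24 tested cytokines and chemokines, 0 were separated with LM2 higher and 16 with LM2 lower, 11 of them 2-fold, with a median difference of -0.82 against 0.03 over all genes. The median was -1.05 against SN12C replicate 1 and -0.75 against replicate 2. MIF, macrophage migration inhibitory factor, was 13.17 and 13.48 in SN12C and 6.44 and 7.97 in LM2. At -6.12 ± 0.62 (SE) this was the largest difference of any tested gene, read by a single probe set of a type that can bind several transcripts. IL6, a cytokine of the acute phase, was 11.64 and 10.73 in SN12C and 7.87 and 8.67 in LM2. IL1A, an alarm cytokine, was 9.51 and 6.59 in SN12C and 5.64 in each LM2 array. For IL6 and MIF the parental arrays lay close together beside the gap to LM2, while the difference of IL1A was mostly that of SN12C replicate 1. IL18 was 7.63 and 7.50 in SN12C and 5.68 and 6.04 in LM2, and IL32 was 9.08 and 8.64 in SN12C and 7.77 and 7.48 in LM2. CCL20, which attracts lymphocytes and dendritic cells through CCR6, was 7.86 and 6.33 in SN12C and 5.22 and 5.39 in LM2. The remaining 5 separated members, CXCL16, CCL2, IL1B, IL24 and EBI3, had differences between -0.93 and -0.36. The other 8 tested members were not separated, among them TNF (-0.03), LIF (-0.12) and CSF1 (0.23).

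The growth factors did not share a direction. Of 34 tested ligands, 6 were separated with LM2 higher and 7 with LM2 lower, with a median difference of -0.03. Over all tested genes the shares were 17.4% and 9.04%, so the higher count is near the general share. FGF1, the acidic fibroblast growth factor, was 7.37 and 7.14 in SN12C and 8.60 and 8.64 in LM2, and its 3 probe sets gave 1.28 to 2.16. GAS6, the ligand of the receptor AXL, was 11.44 and 10.81 in SN12C and 12.50 and 12.32 in LM2. Midkine (MDK), a heparin-binding growth factor, was 8.86 and 9.77 in SN12C and 10.84 and 10.83 in LM2. These 3 were the 2-fold separated ligands of this list, all with LM2 higher. FGF2, the basic fibroblast growth factor, was 10.98 and 10.68 in SN12C and 9.74 and 9.76 in LM2, opposite to FGF1. PDGFC, a platelet-derived growth factor, was 10.58 and 11.23 in SN12C and 9.83 and 9.87 in LM2.

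**Figure D2:**
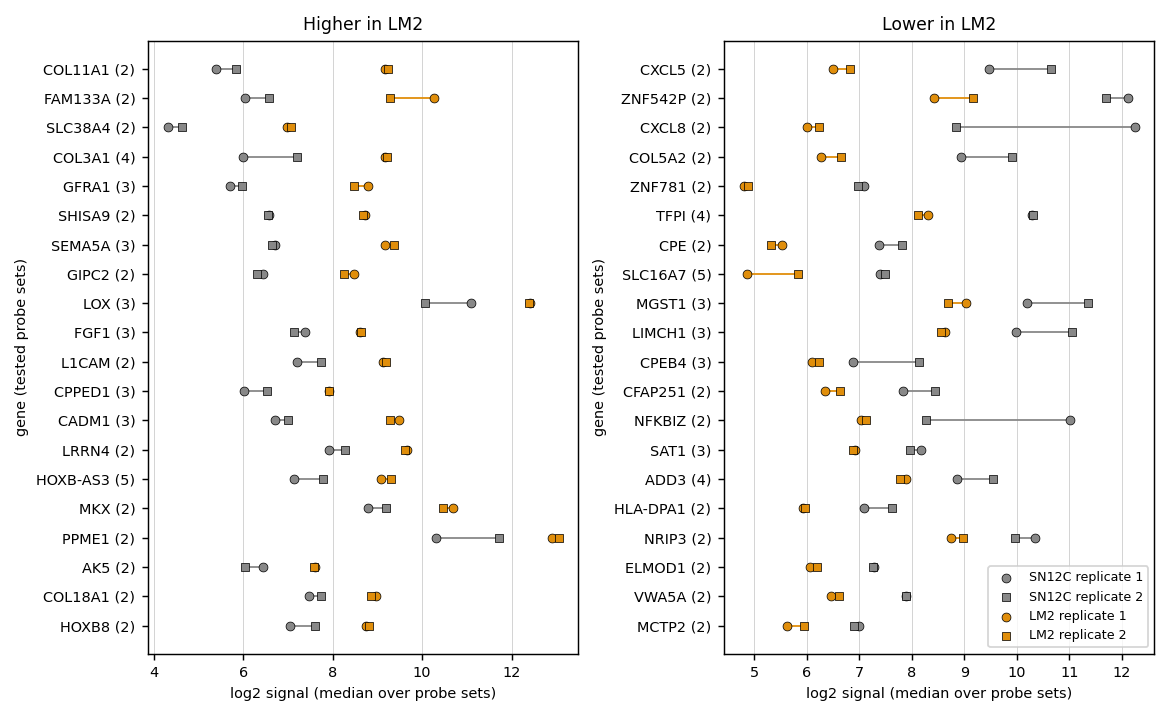
Log2 signal (median over tested probe sets) of the 20 genes on each side with at least 2 tested probe sets, all separated the same way, and the largest gap between the nearest SN12C and LM2 arrays. Grey marks are SN12C and orange marks LM2, circles replicate 1 and squares replicate 2; the parental arrays lie close for TFPI (10.29 and 10.32) and far apart for CXCL8 (12.24 and 8.84).

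Among collagens, which form the fibres and sheets of the matrix, 7 of 20 tested chains were separated with LM2 higher and 2 with LM2 lower, with a median difference of 0.35. COL11A1, a chain of a minor fibrillar collagen, was 5.38 and 5.84 in SN12C and 9.18 and 9.23 in LM2. Its 2 tested probe sets gave 3.04 ± 0.23 and 4.16 ± 0.16 (SE), and both parental values lay under the filter value. COL3A1, the chain of type III collagen, was 6.00 and 7.21 in SN12C and 9.17 and 9.22 in LM2. Its 4 probe sets agreed in direction, 3 of them giving 2.68 to 3.04 and the other 0.65. The 3 larger ones are of the _x_at and _s_at types, so that without such probe sets the difference was 0.65. COL1A2 was 7.15 and 6.42 in SN12C and 8.28 and 8.29 in LM2, COL9A3 was 6.17 and 6.85 against 8.95 and 8.60, and COL18A1, a basement membrane collagen from which endostatin is cut, was 7.46 and 7.73 against 8.97 and 8.86. COL5A1 and COL6A2 were the other separated chains, at 0.58 and 0.65. On the lower side stood COL5A2, a chain of the type V collagen found inside type I fibres, at 8.94 and 9.91 in SN12C and 6.26 and 6.65 in LM2. COL8A1, a short-chain collagen, was 8.16 and 7.84 in SN12C and 5.75 and 5.39 in LM2. COL5A1 and COL5A2, chains of the same collagen, thus differed in opposite directions. The 9 fibroblast markers tested had 4 separated members, all with LM2 higher, and a median of 0.49. They share COL1A1, COL1A2 and COL3A1 with the collagens, and the median is the value of COL1A1, whose probe sets gave 2.55 to -0.07 and whose difference was -0.04 and -0.01 under 2 alternative settings. In their brightest probe sets, the fibroblast marker LUM was at 4.08 to 4.10 over the 4 arrays, DCN at 6.89 to 7.34 and PDGFRA at 6.83 to 7.06.

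Enzymes that build or trim the matrix differed both ways. Of 39 tested enzymes, proteases and inhibitors, 8 were separated with LM2 higher and 7 with LM2 lower, with a median of 0.03. Those counts stand beside shares of 17.4% and 9.04% over all tested genes. LOX, the lysyl oxidase that cross-links collagen, was 11.09 and 10.05 in SN12C and 12.42 and 12.40 in LM2, with 1.63 to 2.33 in its 3 probe sets. LOXL1, a related oxidase, was 9.18 and 9.23 in SN12C and 11.24 and 10.92 in LM2. PLAT, the tissue plasminogen activator, was 11.68 and 10.72 in SN12C and 12.57 and 12.53 in LM2. The membrane-anchored metalloprotease MMP24 was 7.73 and 7.50 in SN12C and 8.53 and 8.45 in LM2. PLAU, the urokinase plasminogen activator, went the other way from PLAT, at 12.13 and 12.38 in SN12C and 11.66 and 11.41 in LM2. TFPI, which inhibits the start of blood coagulation by tissue factor, was 10.29 and 10.32 in SN12C and 8.31 and 8.12 in LM2. Its 4 tested probe sets gave -3.51 to -1.86, and a dim untested one -0.68. TFPI2, a related protease inhibitor, was 7.05 and 9.15 in SN12C and 6.16 and 6.91 in LM2.

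Several matrix proteins other than collagens stood 2-fold lower in LM2. Of 35 tested, 3 were separated with LM2 higher and 7 with LM2 lower, and 6 of the 7 were 2-fold separated; the list median was -0.08. Tenascin C (TNC), a matrix protein of wounds and tumour stroma, was 10.71 and 9.25 in SN12C and 6.93 and 7.14 in LM2. TGFBI, a secreted protein that TGF-beta induces, was 10.47 and 12.08 in SN12C and 8.66 and 8.98 in LM2. Osteopontin (SPP1) was 8.32 and 7.70 in SN12C and 5.77 and 5.95 in LM2. For TNC, TGFBI and SPP1 the LM2 arrays lay close together and the distance to the nearer parental array ran from -2.10 to -1.49. Fibrillin 2 (FBN2), a component of microfibrils, was 9.76 and 10.08 in SN12C and 8.41 and 7.69 in LM2. FBLN2 and SRPX were the other 2-fold separated ones, at -1.02 and -1.81. IGFBP6, which binds insulin-like growth factors, was the 1 member 2-fold separated with LM2 higher, at 10.71 and 10.07 in SN12C and 11.67 and 11.45 in LM2. Without the filter on dim signals, which brings in further probe sets, TNC had a median of -0.17, SPP1 of -1.14 and FBN2 of -0.74.

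Of 31 tested adhesion receptors, 7 were separated with LM2 higher and 4 with LM2 lower, with a median of 0.03. L1CAM, a neural adhesion molecule of the immunoglobulin superfamily, was 7.19 and 7.73 in SN12C and 9.13 and 9.19 in LM2. CADM1, another member of that superfamily, was 6.72 and 6.99 in SN12C and 9.49 and 9.28 in LM2, with 1.54 to 3.67 over its 3 probe sets. NECTIN3, which pairs with nectins on neighbouring cells, was 8.74 and 9.20 in SN12C and 9.97 and 9.82 in LM2. CADM1 was the 1 member of this list that was 2-fold separated. The weaker probe set of L1CAM gave 0.99. Outside the list, THY1 (1.18) and PCDHB5 (1.86) were 2-fold separated with LM2 higher and the desmosomal cadherin DSC3 (-1.89) with LM2 lower. N-cadherin (CDH2) was 9.43 and 9.64 in SN12C and 10.15 and 10.22 in LM2, a smaller difference of 0.65 that both its probe sets showed.

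Guidance molecules first known from growing axons had 7 of 36 tested members separated with LM2 higher and 4 with LM2 lower, with a median of 0.00. SEMA5A, a transmembrane semaphorin, was 6.70 and 6.63 in SN12C and 9.17 and 9.37 in LM2. Its 3 probe sets gave 1.68 ± 0.14, 1.96 ± 0.13 and 2.76 ± 0.14 (SE), and neither parental array stood apart. SLIT2, the ligand of ROBO receptors, was 6.37 and 7.51 in SN12C and 8.39 and 8.82 in LM2. NRP1, a co-receptor for class 3 semaphorins and VEGF, was 9.22 and 9.42 in SN12C and 10.14 and 10.13 in LM2. SEMA3E, a secreted semaphorin that acts through plexin D1, was the 1 member 2-fold separated with LM2 lower, at 7.59 and 8.23 in SN12C and 4.88 and 4.44 in LM2.

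Of the proteins of the actin cytoskeleton, 14 of 43 tested were separated with LM2 higher and 4 with LM2 lower, with a median of 0.24. That median was 0.38 against SN12C replicate 1 and 0.13 against replicate 2. CRIP1, a small LIM-domain protein, was 6.98 and 8.95 in SN12C and 11.75 and 11.86 in LM2, the largest difference on the higher side. CRIP2, its neighbour on chromosome 14, was 7.41 and 8.09 in SN12C and 9.27 in both LM2 arrays. TGFB1I1, a focal adhesion protein also called Hic-5, was 9.39 and 9.10 in SN12C and 10.81 and 10.30 in LM2. These 3, all with LIM domains, were the members of this list 2-fold separated with LM2 higher. Outside it, troponin C (TNNC1, 1.95) was 2-fold separated with LM2 higher, and LIMCH1 (-1.94) and ADD3 (-1.47) with LM2 lower. Fascin (FSCN1), which bundles actin in cell protrusions, was 7.54 and 8.34 in SN12C and 9.23 and 8.62 in LM2, so that the nearest arrays lay only 0.28 apart. MYH10, a heavy chain of non-muscle myosin, and CAP2, which binds actin monomers, had differences of 0.51 and 0.56. Calponin (CNN1) was 10.76 and 10.54 in SN12C and 9.61 and 9.48 in LM2, and palladin (PALLD), an actin scaffold, was 10.29 and 10.89 in SN12C and 9.48 and 9.61 in LM2.

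The S100 proteins and annexins, calcium-binding proteins of the cytoplasm and membrane, had 8 of 21 tested members separated with LM2 higher and 0 with LM2 lower, with a median of 0.18. S100A4, known for its links to cell motility and metastasis, was 8.61 and 9.19 in SN12C and 12.90 and 12.29 in LM2, a difference of 3.70 ± 0.34 (SE). S100A2 was 9.13 and 8.88 in SN12C and 9.67 and 9.88 in LM2. S100A16 was 11.98 and 12.04 in SN12C and 12.71 and 12.55 in LM2. S100A4 thus stood far from the other members, and it was the 1 that was 2-fold separated. Of 18 tested genes of the intermediate filament list, 1 was separated, with LM2 higher, and the median was 0.12. The keratin KRT33A, outside that list, was 2-fold separated with LM2 lower (-1.16).

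**Figure D3:**
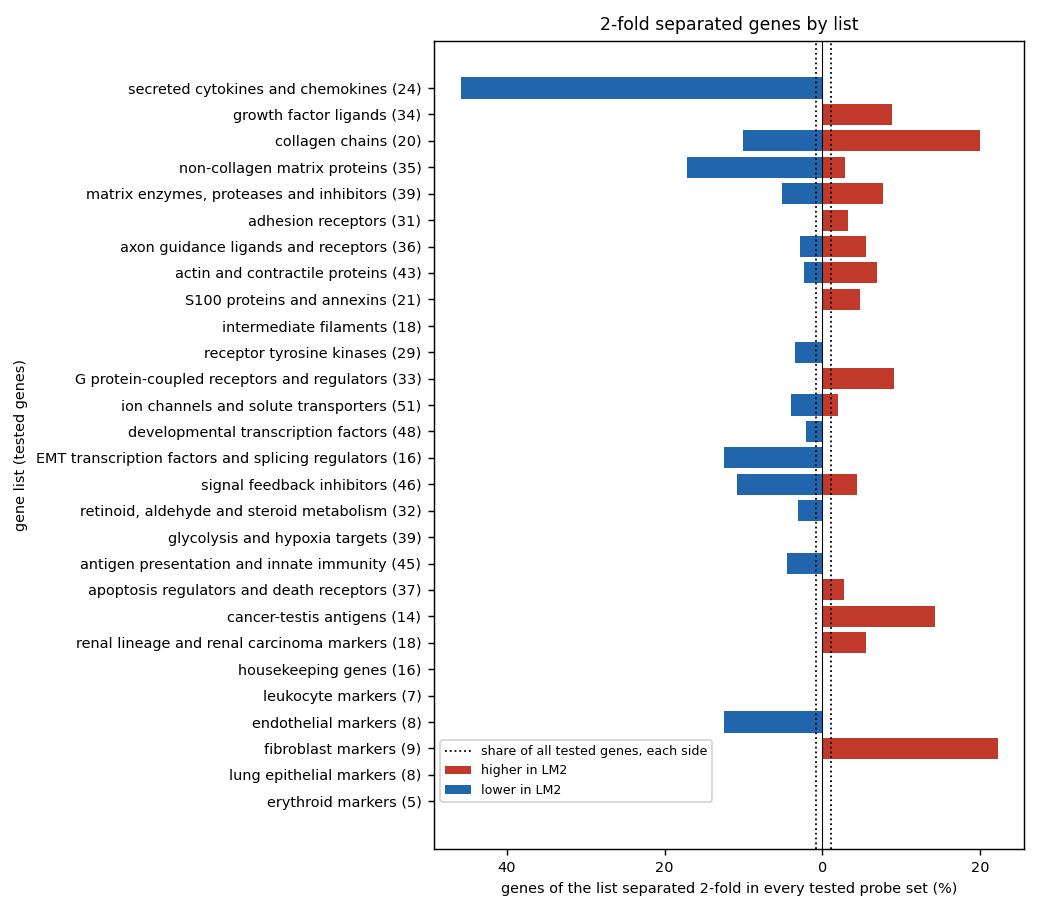
Share of the tested genes of each list reported here (%) that were 2-fold separated in every tested probe set, to the right with LM2 higher and to the left with LM2 lower, with the number of tested genes in brackets. Dotted lines give the shares over all tested genes, 1.11% and 0.864%; the longest bar is that of the cytokines, 11 of 24 genes lower.

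Among receptors, 4 of 29 tested receptor tyrosine kinases were separated with LM2 higher and 2 with LM2 lower, with a median of -0.02. Both counts are near the shares over all tested genes, 17.4% and 9.04%. MET, the receptor of hepatocyte growth factor, was 10.20 and 11.21 in SN12C and 12.03 and 11.99 in LM2, and its 4 probe sets gave 0.84 to 2.64. ERBB2 was 7.14 and 8.15 in SN12C and 8.75 and 8.33 in LM2, with only 0.18 between the nearest arrays, and RYK, a receptor for Wnt proteins, differed by 0.53. KDR, the main VEGF receptor of endothelium, was 7.10 and 6.79 in SN12C and 5.53 and 5.51 in LM2. Outside that list, GFRA1, the co-receptor that binds GDNF and presents it to RET, was 5.71 and 5.97 in SN12C and 8.80 and 8.48 in LM2. Its 3 probe sets gave 2.29 to 3.01. For MET the parental arrays lay 1 log2 unit apart, whereas for KDR and GFRA1 each line kept to a narrow range.

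G protein-coupled receptors and their regulators had 7 of 33 tested members separated with LM2 higher and 6 with LM2 lower, with a median of 0.01. The Wnt receptor FZD2 was 9.71 and 10.46 in SN12C and 11.45 and 11.31 in LM2, and FZD7, another one, was 9.45 and 9.35 in SN12C and 10.10 and 10.14 in LM2. RGS4, which ends G protein signals, was 7.19 and 7.22 in SN12C and 8.85 and 7.98 in LM2. The oxytocin receptor (OXTR) was 12.68 and 12.50 in SN12C and 13.77 and 13.65 in LM2. The lysophosphatidic acid receptor LPAR3 stood on the lower side, at 7.56 and 8.45 in SN12C and 6.64 and 7.10 in LM2.

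Of 51 tested transporters and channels, 6 were separated with LM2 higher and 13 with LM2 lower, with a median of 0.00. The amino acid transporter SLC38A4 was 4.30 and 4.63 in SN12C and 6.97 and 7.06 in LM2, with parental values in the dim range. SLC16A7, the monocarboxylate transporter also called MCT2, was 7.40 and 7.49 in SN12C and 4.86 and 5.83 in LM2. All 5 of its tested probe sets were lower, by -2.80 to -1.25. SLC6A15, which carries neutral amino acids, was 7.55 and 8.72 in SN12C and 6.55 and 6.71 in LM2. SLC7A2, a carrier of cationic amino acids, was 9.16 and 9.84 in SN12C and 8.45 and 8.51 in LM2. The myo-inositol transporter SLC5A3 was 7.80 and 8.24 in SN12C and 8.81 and 8.85 in LM2. It differed by 0.60 against SN12C replicate 2 alone and by 1.27 against replicate 1 alone.

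Of 48 tested developmental transcription factors, 10 were separated with LM2 higher and 7 with LM2 lower, with a median of 0.02. The HOX genes, which encode positional identity, were grouped by cluster after their values were seen, so the cluster counts are descriptions only. Over all tested genes, 17.4% were separated with LM2 higher and 9.04% with LM2 lower. In the HOXB cluster 6 of 10 tested genes were separated with LM2 higher and 0 with LM2 lower, with a median of 0.34. HOXB8 was 7.04 and 7.60 in SN12C and 8.75 and 8.82 in LM2, and the noncoding RNA HOXB-AS3 was 7.12 and 7.79 in SN12C and 9.08 and 9.30 in LM2, with 1.58 to 1.85 over 5 probe sets. The others were HOXB2 (0.62), HOXB3 (0.57), HOXB5 (0.36), HOXB7 (0.36) and HOXB4 (0.06). For HOXB4 the nearest arrays lay only 0.0035 apart. In the HOXC cluster 3 of 6 tested genes were separated, all with LM2 lower. HOXC6 was 7.91 and 8.28 in SN12C and 6.81 and 6.80 in LM2, HOXC9 was 6.96 and 7.24 against 6.48 and 6.21, and HOXC4 differed by -0.21. In the HOXD cluster 2 of 6 were separated with LM2 lower, HOXD10 (-0.42) and HOXD8 (-0.36). Over the alternative settings the median ran from 0.12 to 0.50 for HOXB, from -0.39 to -0.11 for HOXC and from -0.41 to -0.17 for HOXD. MKX, the tendon factor Mohawk, was 8.78 and 9.19 in SN12C and 10.68 and 10.47 in LM2. SIX4 and TBX18 had smaller differences of 0.76 and 0.87, and for TBX18 the nearest arrays lay 0.23 apart.

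Factors tied to epithelial-mesenchymal transition gave 1 of 16 tested members separated with LM2 higher and 4 with LM2 lower, with a median of -0.11. TWIST1 was the higher one, at 8.87 and 9.51 in SN12C and 10.24 and 10.13 in LM2. ZEB2, a repressor of E-cadherin, was lower, at 7.70 and 6.99 in SN12C and 6.27 and 6.23 in LM2. With its dim probe sets included, the median of ZEB2 was -0.16. The inhibitors of DNA binding ID1, ID2 and ID3, which BMP signals induce, were the other 3 lower ones, at -0.78, -0.93 and -1.33. ID3 was 8.99 and 11.03 in SN12C and 8.43 and 8.93 in LM2, so that its difference was mostly that of SN12C replicate 2. E-cadherin (CDH1) was under the filter value in all 4 arrays, at 4.83 to 5.11, and vimentin (VIM) was at 14.15 to 14.37.

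Inhibitors that signalling pathways induce against themselves included several that stood lower in LM2: 5 of 46 tested were separated with LM2 higher and 10 with LM2 lower, with a median of -0.09. NFKBIZ was 11.01 and 8.28 in SN12C and 7.03 and 7.12 in LM2, and TNFAIP3, the NF-kappaB inhibitor A20, was 8.80 and 7.15 in SN12C and 6.42 and 6.72 in LM2. Both stood highest in SN12C replicate 1, as CXCL8 did. DKK1, a secreted Wnt inhibitor, was 12.34 and 11.79 in SN12C and 10.42 and 10.41 in LM2. ERRFI1, which blocks the EGF receptor, was 10.27 and 9.55 in SN12C and 7.43 and 7.56 in LM2. Follistatin (FST), which binds activin, gave -2.24, -1.02 and -1.01 in its 3 probe sets, and PHLDA1 gave -1.66 to -0.34 in 6. Gremlin (GREM1), a secreted BMP antagonist, was on the other side, at 8.05 and 8.07 in SN12C and 9.10 and 9.32 in LM2. BAMBI, a decoy receptor of the TGF-beta family, was 6.22 and 7.41 in SN12C and 8.14 and 7.97 in LM2.

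In metabolism, 4 of 39 tested genes listed under glycolysis and hypoxia were separated with LM2 higher and 12 with LM2 lower. None of these 39 was 2-fold separated, and their median was -0.10. Hypoxia can also induce LOX (2.15) and DDIT4 (-1.76), outside this list, which were 2-fold separated in opposite directions. Stanniocalcin 2 (STC2) was 10.37 and 9.21 in SN12C and 8.64 and 8.80 in LM2. PFKFB3, which makes an activator of phosphofructokinase, was 8.95 and 8.97 in SN12C and 8.27 and 8.32 in LM2, and PDK3, which blocks entry of pyruvate into the mitochondrial cycle, differed by -0.78 over 4 probe sets. The liver-type phosphofructokinase PFKL went the other way, at 8.84 and 8.86 in SN12C and 9.73 and 9.53 in LM2. Retinoid, aldehyde and steroid genes had 2 of 32 members separated with LM2 higher and 3 with LM2 lower, with a median of -0.05. MGST1, a membrane-bound glutathione transferase, was 10.20 and 11.36 in SN12C and 9.03 and 8.70 in LM2, with -2.30 to -1.85 over 3 probe sets. SRD5A1, a steroid reductase, and CRABP2, a retinoic acid carrier, differed by 0.61 and 0.63.

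Genes of antigen presentation and innate immunity had 7 of 45 tested members separated with LM2 higher and 10 with LM2 lower, with a median of 0.06. HLA-DMA, which loads peptides on class II molecules, was 6.88 and 7.22 in SN12C and 5.60 and 6.25 in LM2, and HLA-DPA1, a class II chain outside the list, was 7.10 and 7.63 in SN12C and 5.94 and 5.96 in LM2. BST2, an interferon-induced protein that tethers virions, was 8.92 and 9.55 in SN12C and 7.17 and 8.48 in LM2. The complement protease C1S and the RNA sensor IFIH1 differed by -0.83 and -0.62. CD55, which protects cells from complement, stood higher in LM2, at 10.48 and 10.89 in SN12C and 11.43 and 11.53 in LM2.

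Regulators of apoptosis were split, with 5 of 37 tested separated with LM2 higher, 6 with LM2 lower and a median of -0.02. All tested genes had shares of 17.4% and 9.04%. The death-associated kinase DAPK1 was 7.54 and 9.15 in SN12C and 9.71 and 9.84 in LM2, the 1 member 2-fold separated. BID, the BH3-only protein cut by caspases, and the TWEAK receptor TNFRSF12A differed by 0.68 and 0.75, and the inflammatory caspase CASP4 by -0.66. Cancer-testis antigens, genes normally active in the germ line, were listed together with relatives such as MAGED1. Of 14 tested members of that list, 6 were separated with LM2 higher and 1 with LM2 lower, with a median of 0.06. Outside it, the cancer-testis antigens SPANXB1 (-1.11) and HORMAD1 (-1.24) were 2-fold separated with LM2 lower. FAM133A was 6.02 and 6.58 in SN12C and 10.28 and 9.28 in LM2, with 3.06 and 3.89 in its 2 probe sets. MAGEC2 was 6.50 and 6.15 in SN12C and 7.71 and 8.70 in LM2. MAGED1 and PNMA1 differed by 0.93 and 0.83. The LM2 replicates differed by about 1 log2 unit for both FAM133A and MAGEC2, yet both stayed above the parental arrays.

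Several genes outside these groups had some of the clearest separations. TMEM200C, a transmembrane protein, was 4.71 and 5.95 in SN12C and 9.02 and 8.91 in LM2, while a dim untested probe set gave 0.03. DCDC2, a microtubule-binding doublecortin protein, was 8.66 and 8.14 in SN12C and 10.98 and 11.01 in LM2. PPP2R2B, a regulatory subunit of the phosphatase PP2A, was 5.87 and 6.42 in SN12C and 8.89 and 8.87 in LM2. PPME1, which removes the methyl group of that phosphatase, was also higher, at 10.31 and 11.72 in SN12C and 12.91 and 13.06 in LM2. SHISA9 was 6.58 and 6.56 in SN12C and 8.71 and 8.67 in LM2, and its neighbour CPPED1 was 6.02 and 6.54 in SN12C and 7.92 and 7.91 in LM2. GIPC2, LRRN4 and the adenylate kinase AK5 differed by 2.00, 1.53 and 1.36. With dim probe sets included, the median of DCDC2 was 1.47 and that of PPP2R2B 1.30. In each of these genes the LM2 replicates lay close together beside the gap to the parental arrays.

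On the lower side, ZNF542P, a zinc finger pseudogene on chromosome 19, was 12.11 and 11.70 in SN12C and 8.42 and 9.17 in LM2, with -3.23 and -2.99 in its 2 probe sets. ZNF781, another zinc finger gene of that chromosome, was 7.08 and 6.97 in SN12C and 4.80 and 4.89 in LM2. COXFA4L3 was 11.01 and 11.52 in SN12C and 7.34 and 8.51 in LM2, and VAT1L was 9.28 and 8.85 in SN12C and 6.22 and 6.46 in LM2. All 4 lay more than 2 log2 units below the nearer parental array. Carboxypeptidase E (CPE), which trims peptide hormones, was 7.37 and 7.81 in SN12C and 5.52 and 5.33 in LM2. LIMCH1, an activator of non-muscle myosin, was 9.98 and 11.06 in SN12C and 8.64 and 8.56 in LM2. CPEB4, which controls poly(A) tails, was 6.88 and 8.14 in SN12C and 6.10 and 6.23 in LM2. The polyamine acetyltransferase SAT1 and the membrane skeleton protein ADD3 differed by -1.27 and -1.47. NRIP3 (-1.29), CFAP251 (-1.64), VWA5A (-1.34), MCTP2 (-1.17) and ELMOD1 (-1.14) completed the 20 agreeing genes with the widest gaps, although the probe sets of ELMOD1 gave -2.13 and -0.15, those of VWA5A -2.16 and -0.53 and those of MCTP2 -1.92 and -0.41.

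The shares of 2-fold separated genes on single chromosomes are given beside those over all tested genes, 1.11% higher and 0.864% lower, with no test of their spread. Chromosome 21 held 10 genes with LM2 higher among 165 tested (6.06%) and 0 lower, among them COL18A1, BACE2, CBR1, CBR3 and SYNJ1. Chromosome X held 16 of 475 (3.37%) with LM2 higher, among them FAM133A, ARMCX2, BEX5 and MAGEC2, and 3 lower. Chromosome 5 held 14 of 659 (2.12%) with LM2 higher and 10 (1.52%) lower. Chromosome 14 held 8 of 468 (1.71%) with LM2 higher, CRIP1 and CRIP2 included, and 0 lower. Chromosome 4 held 19 of 505 (3.76%) with LM2 lower, among them the 5 chemokines, CPE, SPP1 and LIMCH1, and 1 higher, SLIT2. Chromosome 2 held 20 of 944 (2.12%) with LM2 lower, such as COL5A2, TFPI, IL1A, IL1R1 and RND3, and 5 higher. There were 12 pairs of 2-fold separated genes that were next to each other among the tested genes. The number that 295 called genes would give by themselves was not computed, and 3 of the pairs are related chemokines whose probe sets may bind each other's transcripts. The pairs were SLC38A4 with AMIGO2, CRIP2 with CRIP1, CPPED1 with SHISA9, ZNF781 with ZNF607, CBR3 with DOP1B, CXCL8 with CXCL1, CXCL5 with CXCL3, CXCL3 with CXCL2, SEMA5A with SNHG18, DCDC2 with KAAG1, NUDT11 with GSPT2 and ZNF711 with FAM133A. Copy number was not measured, and its part in these counts was not tested.

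For other genes the probe sets did not agree, and their differences depend on which probe set is read. Of the 7130 genes with several tested probe sets, 181 had probe sets separated to both sides, and 154 had one 2-fold separated and another opposite or within 0.2. The caldesmon gene CALD1, whose product binds actin and tropomyosin, gave 3.54, 2.98 and 2.14 in 3 probe sets and 0.22 and 0.00 in the others. The neural adhesion molecule NTM gave 3.46, 0.65 and 0.01, and the transcription factor SOX4 gave 2.84, 1.46, 0.49 and -0.05. COL1A1, the partner of COL1A2 in type I collagen, gave 2.55, 0.99, -0.01 and -0.07. The brightest of these, at 9.01 to 9.04 in every array, was one of those that did not differ. KRT19, a keratin of simple epithelia, was 8.92 and 9.54 in SN12C and 11.76 and 11.74 in LM2 by one probe set, and the other stayed between 6.10 and 6.24. HMGA2, a chromatin protein of embryonic tissue, was 7.28 and 7.46 in SN12C and 4.65 and 4.59 in LM2 by one probe set, while the other gave -0.15.

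**Figure D4:**
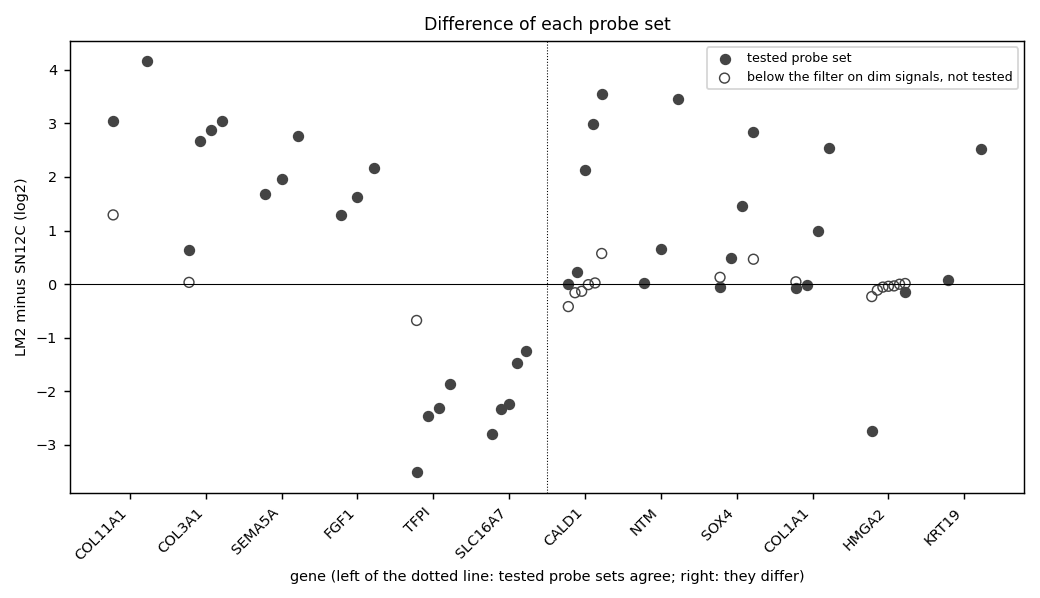
LM2 minus SN12C (log2, y axis) of every probe set of 12 genes, filled where tested and open where under the filter on dim signals. The 6 genes left of the dotted line have tested probe sets that are all separated to the same side, such as SLC16A7 from -2.80 to -1.25. In the 6 on the right at least 1 tested probe set differs widely and another lies near 0, such as NTM from 0.01 to 3.46; those of SOX4 and COL1A1 lie on both sides of 0.

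How far a separation depends on a single parental array can be read from the differences against each. Among the named lower genes, MIF, ZNF542P and SEMA3E stood below both parental arrays by like amounts, whereas CXCL8, CXCL2, CXCL1, CXCL3, NFKBIZ and IL1A stood much further below replicate 1. For CXCL8 the nearest LM2 and parental arrays still differed by -2.45 in the median of its probe sets. Among the higher genes, COL11A1, S100A4, SEMA5A, SHISA9 and GFRA1 stood above both parental arrays by at least 1.79 in their nearest arrays, while FSCN1, ERBB2, TBX18 and BID cleared SN12C replicate 2 or the nearer array by 0.28 or less. COL3A1 differed by 1.98 without SN12C replicate 1 and by 3.57 without replicate 2, THY1 by 0.67 and 1.68, and LIMCH1 by -2.55 and -1.35.

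**Figure D5:**
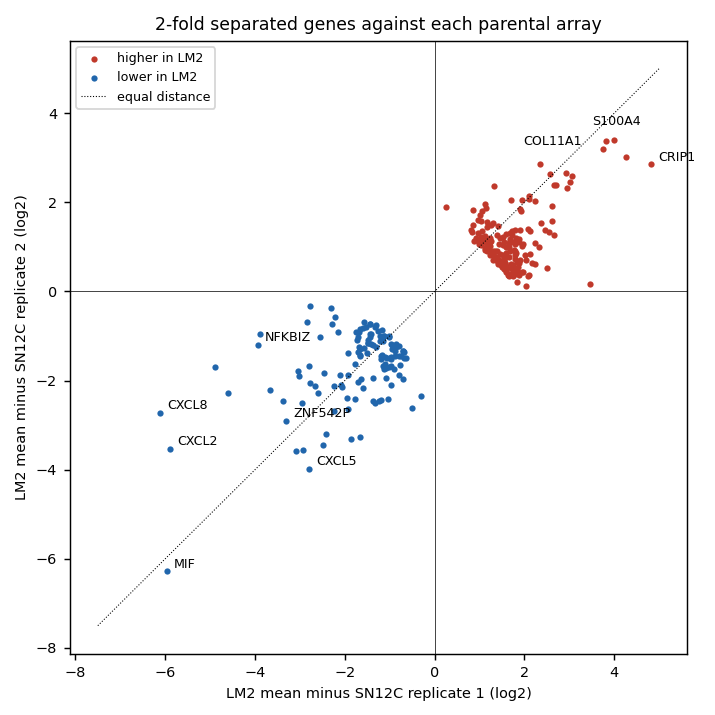
Mean of the LM2 arrays minus SN12C replicate 1 (x axis, log2) and minus SN12C replicate 2 (y axis, log2) for the 166 genes 2-fold separated with LM2 higher (red) and the 129 with LM2 lower (blue). The dotted line marks equal distance; MIF lies near it, and CXCL8, CXCL2 and NFKBIZ lie on the side of replicate 1.

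The labelled cell type was set against its markers. PAX8, a renal lineage factor, was at 9.82 and 9.34 in SN12C and at 9.33 and 9.34 in LM2. Other renal markers lay nearer the filter value of 6.03, with PAX2 at 6.34 to 6.46, LHX1 at 6.06 to 6.08 and CDH6 at 6.87 to 7.41 in their brightest probe sets. The keratins KRT8 and KRT18 were at 12.46 or more in all arrays. EPCAM was under the filter value at 4.17 to 4.54, and CA9 was not analysed here. Of 18 tested renal genes, 2 were separated, MET and the brush border aminopeptidase ANPEP (1.06, or 0.02 with its dim probe sets included), both with LM2 higher. Of markers of other cells, 0 of 7 tested leukocyte genes and 0 of 5 erythroid genes were separated. In their brightest probe sets, the leukocyte markers PTPRC (CD45) and LYZ were at 4.99 to 5.36 and 5.22 to 5.25. CD3E, at 6.36 to 7.05, and CD14, at 6.19 to 7.16, lay above the filter value. The endothelial cadherin CDH5 was at 4.92 to 4.93, while VWF was at 6.22 to 6.70 and PECAM1 at 7.22 to 7.65. The erythroid gene HBB was at 7.23 to 7.71. Of 8 tested genes of the endothelial list, 2 were separated, both with LM2 lower, KDR included. NOS3, the endothelial nitric oxide synthase, lies outside this list and was 2-fold separated with LM2 higher (1.40). Lung epithelial markers had 2 of 8 separated with LM2 higher and 1, LAMP3 (-0.51), with LM2 lower. The surfactant genes SFTPB and SFTPC read 7.71 to 9.04 over the 4 arrays, with SN12C replicate 1 the highest for each. NKX2-1 read 6.78 to 7.18 and SCGB1A1 4.98 to 5.14. The fibroblast marker THY1, an adhesion protein of the cell surface, was 9.58 and 10.40 in SN12C and 11.16 and 10.99 in LM2. Among 16 tested housekeeping genes 3 were separated, all with LM2 higher, led by SDHA at 0.71, and their median was 0.29 against SN12C replicate 1 and -0.00 against replicate 2. In RNA of a whole culture, a change in every cell and a change in the share of cells that express a gene cannot be told apart.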

How the data were processed

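The authors deposited log2 signals of Affymetrix probe sets for 5 arrays, made with RMA and Partek per the submitters' processing notes, which name no version. RMA subtracts background, gives all arrays one distribution and combines the probes of a set, so differences in total signal between arrays are removed, and no value was transformed again. Of 54675 probe sets, 1801 paired with several genes and 11777 that the platform table does not list were left out; 41097 had 1 gene, 41043 of them matched to genes of GRCh38.p14. The 62 control probe sets, which fall within these classes, were also left out. Of the tested probe sets, 2448 had names ending in _x_at and 8012 names ending in _s_at; such sets may hybridise with more than one transcript. Tied values were frequent: 1413 tested probe sets had equal values in the SN12C pair and 3901 in the LM2 pair.

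Samples were grouped by the labels. The test was limma 3.58.1 (lmFit and eBayes, R 4.3.3) on 4 arrays with 1 mean per line and Benjamini-Hochberg adjustment at 0.05, tested on simulated data. Same-numbered replicates deviated together at a correlation of 0.0731, and the labels do not pair them, so the main fit used no block. This single correlation cannot show whether the numbers mark a shared culture. The members, gene lists and rules were chosen with earlier results of these data known. Named genes were the 20 agreeing genes on each side with the widest gap between nearest arrays, the 5 on each side with 1 probe set, up to 4 members of each of 29 lists differing by at least 0.5 log2 units, and the 6 genes whose probe sets differ most, leaving out genes of chromosome Y and XIST; other members of counts are named with them. One list is not reported here. Alternatives covered the filter, the probe sets used, scaling, eBayes options, all 5 arrays in the fit, leave-one-out fits and a replicate block; leaving out tied probe sets was added after seeing the data. Figures were drawn with matplotlib 3.10.9. The number of arrays limits the precision.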

Additional observations from a re-analysis of the deposited data

Results flagged for a closer look

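Probe sets that the platform table does not pair with a gene were outside the comparison. Of 4218 such probe sets past the filter on dim signals, 36 were 2-fold separated with LM2 higher and 16 with LM2 lower. The 3 with the widest gap on the higher side were singled out because their signal in LM2 stood above that of both parental arrays. Probe set 242206_at was 4.10 and 4.40 in SN12C and 7.13 and 7.05 in LM2, a difference of 2.84. Probe set 235657_at was 6.62 and 7.06 in SN12C and 8.42 and 8.47 in LM2, a difference of 1.61. Probe set 203263_s_at was 6.72 and 6.88 in SN12C and 8.16 and 7.94 in LM2, a difference of 1.25. Their genes are not named here.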

How the results depend on the processing

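In limma 0 probe sets passed in each alternative but that without SN12C replicate 2, so that leaving out 1 array gave 0 to 6827 calls. That fit called 4650 higher and 2177 lower, and its spread came from the 2 LM2 arrays only. Unadjusted p-values under 0.05 ranged from 684 to 13187. The labels do not pair the replicates; with a replicate block 0 probe sets passed (lowest adjusted p in limma 0.640, 2041 with an unadjusted p under 0.05). The 166 higher and 129 lower genes became 92 to 492 and 116 to 163 with 1 array left out. They became 2594 and 1350 with no minimum difference, 15 and 28 with at least 2 log2 units, and 44 and 26 over genes with at least 2 tested probe sets. With 1 probe set per gene, the one with the highest mean, 255 were higher. The share of higher genes was 56.3%, against 38.0% without SN12C replicate 1 and 75.1% without SN12C replicate 2. Of 1296 alternative values of 122 named genes, 1178 stayed within the spread between replicates, 118 moved beyond it and 0 separated genes changed sign. COL1A1, whose probe sets differ, was -0.04 with the 60th percentile filter and -0.01 with 1 probe set per gene. With no filter, when dim probe sets enter the median, 20 named genes moved by over 1.5 times, among them CXCL2 (-0.36), TNC (-0.17), ZEB2 (-0.16), ANPEP (0.02), IFIH1 (-0.17), NRP1 (0.53), CADM1 (0.78), MAGEC2 (0.93) and TMEM200C (1.83). Of 319 values of 29 list medians, 302 stayed within it. Quantile normalizing again turned the balance, to 127 higher and 142 lower (47.2% higher), while centring gave 172 and 126 (57.7%); the median over all genes was -0.01 and 0.05. Signals under 6.03 lie near background, so that sizes are uncertain for 13 of the 166 higher genes, dim in both SN12C arrays, and 28 of the 129 lower ones, dim in both LM2 arrays.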

Other observations

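Some gene families outside the lists were picked after their values were seen, so their counts are descriptions only. All 7 tested H2B histone genes, which encode a core protein of the nucleosome, were separated with LM2 higher, with a median difference of 1.02. H2BC12 was 11.33 and 11.76 in SN12C and 12.81 and 12.94 in LM2, and H2BC6 was 8.46 and 9.18 in SN12C and 10.05 and 10.06 in LM2. Most of their probe sets are of the _x_at and _s_at types, which can bind several H2B transcripts: without these, 2 genes were left, with a median of 0.98. The family median ran from 0.53 with no filter, where 14 genes were tested, to 1.23 with the 60th percentile filter. Of 9 tested protocadherin beta genes, which sit in a row on chromosome 5 and encode neural adhesion proteins, 7 were separated with LM2 higher and 0 with LM2 lower. PCDHB5 was 6.72 and 6.84 in SN12C and 8.83 and 8.44 in LM2, and PCDHB7 was 6.48 and 6.58 in SN12C and 7.56 and 7.38 in LM2. Their median of 0.59 ran from 0.46 to 0.94 over the alternatives.

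The interleukin 1 pathway, also picked after its values were seen, had 8 of 14 tested members separated with LM2 lower and 2 with LM2 higher, with a median of -0.92. The receptor IL1R1 was 7.47 and 7.91 in SN12C and 5.15 and 5.32 in LM2. The adaptor kinase IRAK2 was 9.20 and 8.31 in SN12C and 7.47 and 7.77 in LM2, and the ubiquitin ligase PELI1 was 9.26 and 9.22 in SN12C and 7.94 and 7.98 in LM2. The adaptors MYD88 and TRAF6 were the 2 higher members, at 0.33 and 0.34. IL1R1 and PELI1 were alike in both parental arrays, unlike IL1A and NFKBIZ of the same pathway.

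Of the 2-fold separated genes, 137 of the 166 higher and 91 of the 129 lower belong to none of the lists. Among those on the higher side, GPNMB, a membrane glycoprotein, was 5.52 and 5.71 in SN12C and 8.03 and 7.46 in LM2. The imprinted gene MEST was 11.54 and 12.87 in SN12C and 13.94 and 13.81 in LM2. Of 8 tested frizzled receptors, which bind Wnt proteins, 3 were separated with LM2 higher (FZD2, FZD6 and FZD7), 1 with LM2 lower (FZD3, -0.48) and 4 were not separated. FZD6 was 5.69 and 6.71 in SN12C and 8.12 and 8.47 in LM2. Galectin 3 (LGALS3), a lectin, was 9.06 in both SN12C arrays and 10.27 and 9.92 in LM2. On the lower side, COLEC12, a scavenger receptor with a collagen-like domain, was 9.45 and 10.24 in SN12C and 6.72 and 7.37 in LM2. The tight junction protein CLDN1 was 11.17 and 11.07 in SN12C and 9.84 and 10.07 in LM2. The aryl hydrocarbon receptor AHR was 7.74 and 7.75 in SN12C and 6.67 and 6.81 in LM2. The related X-linked genes BEX2 and BEX5 differed in opposite directions: BEX2 was 10.38 and 9.25 in SN12C and 6.95 and 7.77 in LM2, and BEX5 was 6.24 and 6.28 in SN12C and 8.46 and 8.23 in LM2.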
